A study of Rattus norvegicus with 10 samples.

Results

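A run of 10 consecutive rows of the hippocampal expression table, rows 15258 to 15267 in the deposited order, held 7 Ensembl gene identifiers whose transcripts were lower in bred High Responder (bHR) rats than in bred Low Responder (bLR) rats. The run is 10 of the 16643 genes in the table and was chosen from its line differences, so every line difference of a member given here is a description and carries no test. In 1 further member all 5 bHR rats lay above all 5 bLR rats, without passing the threshold. The other 2 members overlapped between the lines. The table gives identifiers without gene names or positions, and 0 of the 16643 identifiers matched the rat RefSeq gene table. Nearness therefore means nearness in row order, and the members are described here without gene names, functions or sequences.

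The bHR and bLR lines were founded by selective breeding for a high or a low locomotor response to a new environment. bHR rats are known for exploration and novelty seeking, and bLR rats for inhibited, anxiety-like behaviour. The hippocampus, a forebrain structure of memory, spatial coding and stress regulation, has long been studied in the comparison of these lines.

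The libraries came from whole hippocampus of 10 adult male rats of breeding generation 43, with 5 rats per line. All 10 were controls of a larger study of antidepressants and stress: they received vehicle (saline and water) for 14 days, lived in standard housing and were killed at postnatal day 92, 1 hour after the elevated plus maze. No group carries a transgene or a drug, and all share the injections and the maze. Polyadenylated RNA was sequenced, and each rat has 1 library and 1 social interaction score.

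Levels are RPM (sequencing reads scaled to a common library size, here the authors' effective size), and log2 values are of RPM with 0.5 reads added. Between 29106105 and 48663164 reads per library fell on rows of the table, on average 39114678 in bHR and 33759218 in bLR, so lower counts in bHR came on average from deeper libraries. The bLR replicate 5 library stood apart, with an effective size of 0.933 times its reads against 1.00 to 1.02 in the other 9. Each count of calls was repeated without it. In whole tissue, fewer cells of a type and less RNA per cell cannot be told apart, and markers of cell types could not be read without gene names.

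The line model was limma on all 16643 rows with Benjamini-Hochberg adjustment. It placed 7 of the 10 members under 0.05 in the direction lower in bHR, where 0.769% of all rows were so placed, and 0 members in the other direction, where 0.613% were. This contrast chose the run, so nothing is read from the count. The median log2 difference, bHR minus bLR, was -1.11 over the 10 members and -0.01 over all rows. Of the 19 rows in the table that passed with at least a 2-fold lower level in bHR, 0.114% of all rows, 5 lay in the run.

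ENSRNOG00000055892 had the widest separation. Its reads in bHR replicates 1 to 5 numbered 7, 3, 6, 5 and 2, and in bLR replicates 1 to 5 they numbered 48, 64, 51, 49 and 50. On the log2 scale the bHR rats lay between -3.78 and -2.30 and the bLR rats between 0.38 and 0.89, which left a gap of 2.68 with no rat in it. The mean level was 0.114 ± 0.048 RPM (SD, n = 5) in bHR and 1.57 ± 0.20 in bLR, 13.8-fold higher in bLR. The fitted log2 difference was -3.71 (SE 0.26). Every bLR library had over 40 reads for this identifier and every bHR library under 10.

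ENSRNOG00000055131, the first row of the run, also had single-digit reads in bHR. They numbered 7, 3, 4, 3 and 4 in bHR replicates 1 to 5 and 17, 22, 18, 20 and 15 in the bLR replicates. The mean level was 0.109 ± 0.048 RPM in bHR against 0.552 ± 0.083 in bLR (SD, n = 5), 5.05-fold higher in bLR, and the log2 difference was -2.29 (SE 0.30). The highest bHR rat was 1.21 log2 units below the lowest bLR rat. At these depths the log2 spread was wider in bHR, with an SD of 0.54 against 0.21 in bLR.

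ENSRNOG00000058666, the next row, had 21, 20, 25, 20 and 12 reads in bHR replicates 1 to 5 and 57, 71, 65, 51 and 53 in the bLR replicates. Its mean level was 0.498 ± 0.111 RPM in bHR and 1.78 ± 0.19 in bLR, 3.57-fold higher in bLR, with a log2 difference of -1.83 (SE 0.18). The lines were 1.25 log2 units apart at their nearest rats. The bLR rats were close together, between 0.62 and 0.99 on the log2 scale.

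ENSRNOG00000057214 closes the run at row 15267. Its reads were 18, 10, 12, 17 and 11 in the bHR replicates and 55, 35, 33, 35 and 32 in the bLR replicates. The level was 0.347 ± 0.090 RPM in bHR and 1.14 ± 0.24 in bLR, 3.27-fold higher in bLR, a log2 difference of -1.69 (SE 0.22). The groups did not overlap, with 0.76 log2 units between the nearest rats. The highest bLR value was replicate 1 and the lowest was replicate 2.

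ENSRNOG00000046751 had 6, 9, 16, 8 and 9 reads in the bHR replicates and 20, 23, 21, 17 and 28 in the bLR replicates. bLR replicate 5 was the highest, at a log2 value of 0.06, and the 4 others of that line ranged from -0.86 to -0.61. The level was 0.241 ± 0.070 RPM in bHR and 0.666 ± 0.206 in bLR, 2.76-fold higher in bLR, and the log2 difference was -1.43 (SE 0.27). Without bLR replicate 5 the log2 difference was -1.26.

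The 2 remaining members under the threshold differed less than 2-fold. ENSRNOG00000042971 had 100, 94, 132, 120 and 103 reads in the bHR replicates and 170, 207, 130, 127 and 127 in the bLR replicates, so its raw reads overlapped and its scaled values did not. Its log2 values were 1.40 to 1.59 in bHR and 1.99 to 2.31 in bLR, a log2 difference of -0.68 (SE 0.09). ENSRNOG00000052109 had 26, 25, 28, 24 and 20 reads in the bHR replicates and 32, 46, 37, 34 and 35 in the bLR replicates. Its lines came within 0.11 log2 units of each other, between bHR replicate 2 at -0.31 and bLR replicate 1 at -0.20, and its log2 difference was -0.80 (SE 0.17).

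ENSRNOG00000053751, at row 15266, went the other way. It had 28, 28, 28, 21 and 17 reads in the bHR replicates and 5, 11, 2, 7 and 8 in the bLR replicates. The level was 0.632 ± 0.183 RPM in bHR and 0.198 ± 0.097 in bLR, 3.19-fold higher in bHR, with a log2 difference of 1.72 (SE 0.39) and a gap of 0.59 between the nearest rats. The bLR values were uneven, from -3.72 in replicate 3 to -1.68 in replicate 5. At the 0.05 threshold, ENSRNOG00000052109 was the member just inside (limma adjusted p = 0.0468) and ENSRNOG00000053751 the member just outside (limma adjusted p = 0.0558).

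In the other 2 members the lines overlapped. ENSRNOG00000060719 had 31, 17, 44, 35 and 11 reads in the bHR replicates and 28, 34, 24, 25 and 21 in the bLR replicates, and its log2 difference was -0.31 (SE 0.26). Its bHR rats were spread from -1.58 to -0.16 and enclosed all 5 bLR rats, which lay between -0.43 and -0.20. ENSRNOG00000046533 was counted far more deeply, with 7123 to 11311 reads in bHR and 6195 to 9055 in bLR. Its level was 230.2 ± 4.5 RPM in bHR and 222.3 ± 5.0 in bLR, a log2 difference of 0.05 (SE 0.03) whose lines overlapped by 0.01 log2 units. It lies between ENSRNOG00000060719 and ENSRNOG00000053751, so the rows with line differences are not an unbroken stretch.

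**Figure D1:**
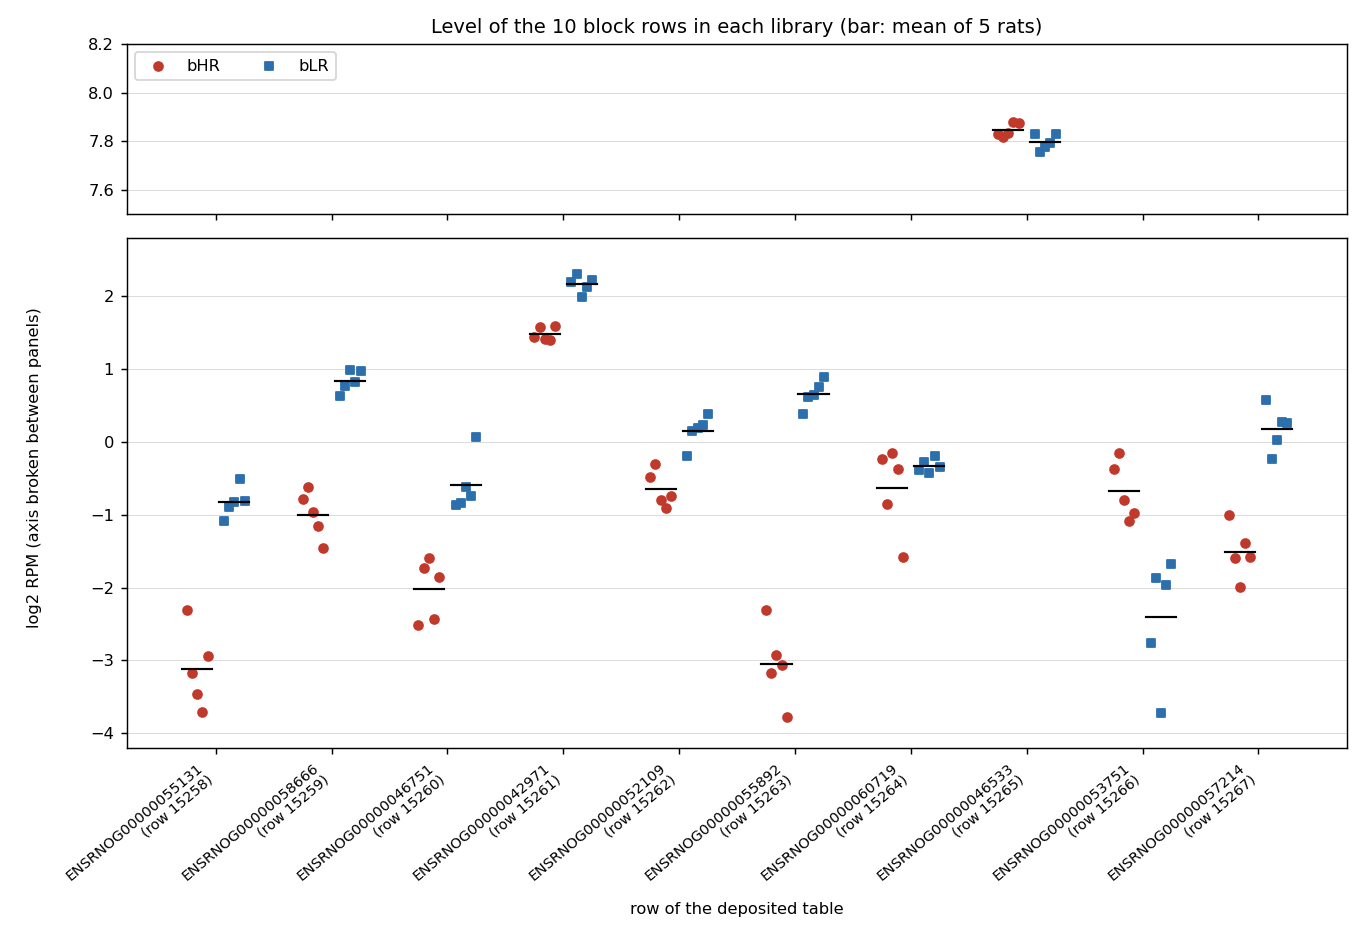
Log2 RPM of each member in each library, in row order (circles bHR, squares bLR, bars the mean of 5 rats; the vertical axis is broken to hold the abundant row 15265). In 7 rows all bHR points lie below all bLR points, in row 15266 they lie above, and in rows 15264 and 15265 they overlap.

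Counted by overlap, 7 members were lower in all 5 bHR rats than in any bLR rat, against 2.16% of all rows, and 1 member was higher, against 1.99%. In raw reads before any scaling 6 members were lower without overlap, where 0.12% of all rows were, and 1 was higher, where 1.02% were. The 7 members under the threshold summed to 161 to 223 reads per bHR rat and 333 to 468 per bLR rat. Their summed level was 4.73 ± 0.36 RPM in bHR and 11.3 ± 0.7 in bLR (SD, n = 5), 2.39-fold higher in bLR. Per rat, the sum was 4.30 to 5.19 in bHR against 10.7 to 12.5 in bLR, and the rats of a line were close to each other. ENSRNOG00000042971 gave the largest part of the sum, with means of 2.79 RPM in bHR and 4.49 in bLR. The summed rows were picked by the same line contrast, so the sum is a description.

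The authors kept rows with at least 16 reads in at least 5 samples, which bears on low rows. ENSRNOG00000055892 reached 16 reads in 5 bLR and 0 bHR libraries, and ENSRNOG00000053751 in 5 bHR and 0 bLR libraries. ENSRNOG00000046751 reached it in 5 bLR and 1 bHR libraries, and ENSRNOG00000057214 in 5 bLR and 2 bHR libraries. ENSRNOG00000058666 and ENSRNOG00000060719 each reached it in 5 bLR and 4 bHR libraries. ENSRNOG00000055131 reached it in 4 bLR and 0 bHR libraries and so did not meet the filter over these 10 libraries, like 505 rows of the table. Any gene that lay between these rows and was removed by the filter is not analysed here. ENSRNOG00000042971, ENSRNOG00000052109 and ENSRNOG00000046533 reached 16 reads in all 10 libraries.

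The spread of rats within a line was small for most members. It was measured as the squared deviation of reads from the line mean divided by the value that counting alone gives, so that 1 stands for counting noise. For the 9 members averaging under 250 reads it ran from 0.638 (ENSRNOG00000055131) to 1.77 (ENSRNOG00000053751) with a median of 0.780, and 5 of them were below 1. Over the 5260 rows of the table with 11.3 to 250 mean reads the median was 1.96, with quartiles at 1.21 and 3.42. Most members lie at the low end of that range of reads, where counting noise makes up more of the spread. How much of the smaller spread of the members came from their low reads was not tested. A small spread also helps a row to pass the line test that chose the run, so this comparison is a description. ENSRNOG00000046533, with far more reads, had a value of 3.65.

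The rows just outside the run showed the edges. Row 15257, immediately before, had a log2 difference of 0.02 (SE 0.12), and row 15268, immediately after, one of 0.08 (SE 0.20). In both the lines overlapped. Row 15257 had 96 to 202 reads in bHR and 80 to 134 in bLR, and row 15268 had 15 to 18 and 11 to 15. The step at the leading edge was thus from 0.02 to -2.29 between neighbouring rows, and at the trailing edge from -1.69 to 0.08. The run was chosen from these same line differences, which also set where it begins and ends. The steps and the differences of the rows outside are therefore a description.

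Among the 10 rows before and the 10 rows after, 0 of 20 passed the line threshold, where 1.38% of all rows did in either direction, and their median log2 difference was -0.04. The range was -0.93 to 0.48. In 1 of the 20, row 15248, the lines did not overlap, against 4.15% of all rows. That row, 10 rows before the run, had 23, 19, 15, 24 and 12 reads in the bHR replicates and 31, 32, 31, 29 and 25 in the bLR replicates, with a log2 difference of -0.93 (SE 0.23, limma adjusted p = 0.0732). It was lower in bHR, like most members, and was separated from them by 9 rows that overlapped.

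**Figure D2:**
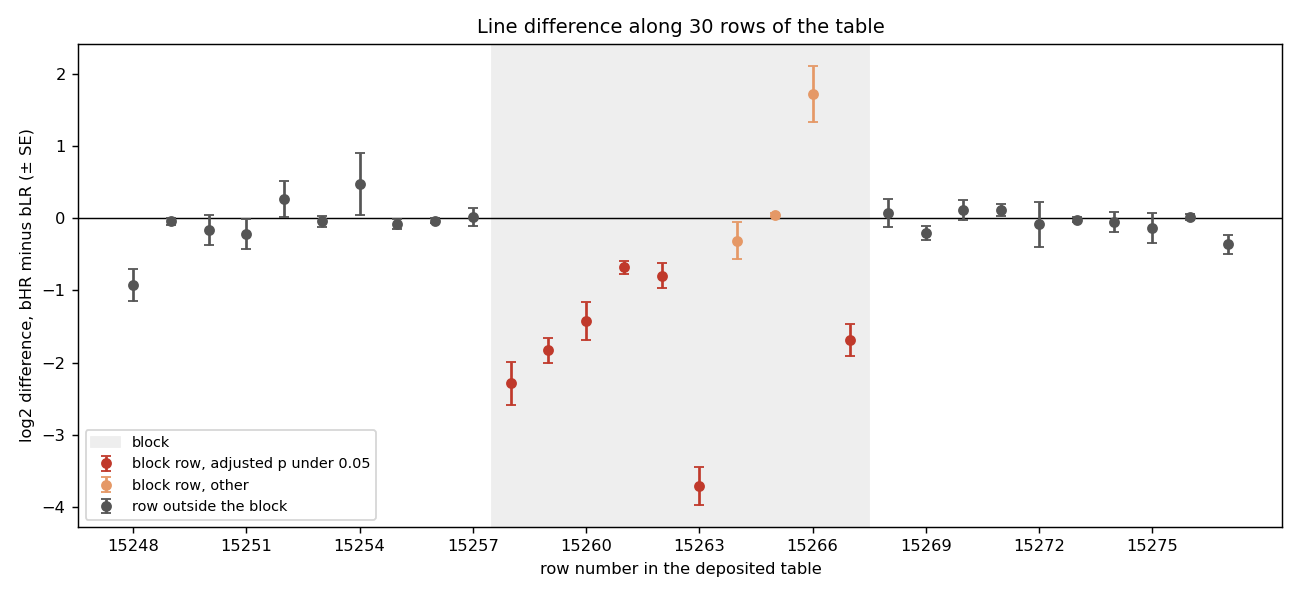
Log2 difference (bHR minus bLR, with its SE) along 30 rows of the table, with the run shaded. The 20 rows outside lie between -0.93 and 0.48, and the members lie between -3.71 and 1.72.

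Over the whole table, windows of 10 consecutive rows held few rows called lower in bHR. Of 16634 windows, 15543 held 0 such rows, 949 held 1 and 120 held 2. All 10 windows with 4 or more shared rows with the run, and the highest count in any other window was 3, reached in 10 windows. The run was picked as the fullest window, so these counts only place it.

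The next comparison asked whether members also varied together among rats of the same line, a measure that the line contrast did not use. Values were centred on the line mean, and Pearson's r over the 10 libraries was tested by a two-sided exact permutation of libraries within each line, with 14400 arrangements. The adjustment covered all 149742 pairs of rows up to 9 rows apart in the table. In that family 0 pairs passed, with a smallest adjusted p of 0.325. The smallest p the arrangements can give is 6.94e-05, so a pair can pass only if many other pairs have p as small. The unadjusted share under 0.05, 7.3% of all such pairs, is therefore the background for the members.

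Between next neighbours of the run, r was 0.25 for ENSRNOG00000055131 with ENSRNOG00000058666, 0.21 for ENSRNOG00000058666 with ENSRNOG00000046751, 0.24 for ENSRNOG00000046751 with ENSRNOG00000042971 and 0.21 for ENSRNOG00000042971 with ENSRNOG00000052109. It was 0.41 for ENSRNOG00000052109 with ENSRNOG00000055892. For ENSRNOG00000060719 with ENSRNOG00000046533 it was -0.29, for ENSRNOG00000046533 with ENSRNOG00000053751 it was -0.17, and for ENSRNOG00000053751 with ENSRNOG00000057214 it was 0.04. The exact permutation p of these 8 pairs lay between 0.331 and 0.914. The median over all 9 neighbouring pairs was 0.21, and 37.0% of the 16642 neighbouring pairs in the table reached that value. Their median was 0.06, with quartiles at -0.24 and 0.35. With libraries scaled to total reads the order turned, with a median of 0.07 in the run and 0.16 over the table.

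The remaining pair, ENSRNOG00000055892 with ENSRNOG00000060719, had r = 0.82 (two-sided exact permutation p = 0.0341, adjusted 0.647) and Spearman's rho of 0.77 (exact permutation p = 0.0296, adjusted 0.716). Both rows were lowest in bHR replicate 5, with 2 and 11 reads. Leaving out bHR replicates 1 and 5, the rats farthest from the median of ENSRNOG00000055892, gave r = 0.49. Leaving out bHR replicate 5 alone gave 0.54 (exact permutation p = 0.324), and leaving out bHR replicate 1 alone gave 0.86 (exact permutation p = 0.0139). With 2 reads added before the log r was 0.70 (exact permutation p = 0.153), and with quantile normalization 0.72 (exact permutation p = 0.103). With libraries scaled to total reads r was 0.81 (exact permutation p = 0.051), and with libraries shifted to a common median 0.81 (exact permutation p = 0.0299). The value thus fell without bHR replicate 5, with 2 reads added and with quantile normalization, and hardly moved under those 2 scalings. In the other settings the p was under 0.05 in some and above it in others.

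Among all 45 pairs of members, r ran from -0.59 to 0.82 with a median of 0.11, against 0.02 over all pairs up to 9 rows apart. It was above 0 in 27 pairs, a count given without the share over the table, so nothing is read from it. At an unadjusted exact permutation p under 0.05 there were 2 pairs, 4.44% of 45 against 7.3% of such pairs in the table, and 4 pairs by Spearman's rho, 8.89% against 6.65%. The count moved with single libraries: it was 0 without bLR replicate 1 and 5, or 11.1%, without bLR replicate 3 or without bLR replicate 5, where 6.74% and 6.93% of pairs in the table were under 0.05. With total-read scaling it was 4, against 7.58%. The share of the members was thus below that of the table in some settings and above it in others. The smallest adjusted p was 0.611. The highest r after the pair above was 0.75 for ENSRNOG00000058666 with ENSRNOG00000052109 (exact permutation p = 0.0215), with a rho of 0.79 (exact permutation p = 0.0188, adjusted 0.699). It was 0.88 without bHR replicates 2 and 5, the farthest 2 rats, 0.63 without bHR replicate 2 alone (exact permutation p = 0.0764) and 0.74 without bLR replicate 1 (exact permutation p = 0.1).

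The 7 members under the line threshold gave 21 pairs, with r from -0.48 to 0.75, a median of 0.21 and 14 pairs above 0. No share over the table stands beside that count either, and nothing is read from it. ENSRNOG00000046751 and ENSRNOG00000057214, both lower in bHR, gave the lowest value, -0.48. ENSRNOG00000053751, which differed between lines in the other direction, had r of 0.66 with ENSRNOG00000042971 (exact permutation p = 0.0688) and 0.54 with ENSRNOG00000052109 (exact permutation p = 0.112). The first of these was 0.24 without bLR replicates 2 and 3, the rats farthest from the median of ENSRNOG00000042971. The second was 0.45 without bHR replicate 2 and bLR replicate 1, the farthest for ENSRNOG00000052109. With all 7 members called lower in bHR, the r of ENSRNOG00000053751 was positive, from 0.04 to 0.66. Most members had counts under 100, and the part of counting noise in these correlations was not tested.

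**Figure D3:**
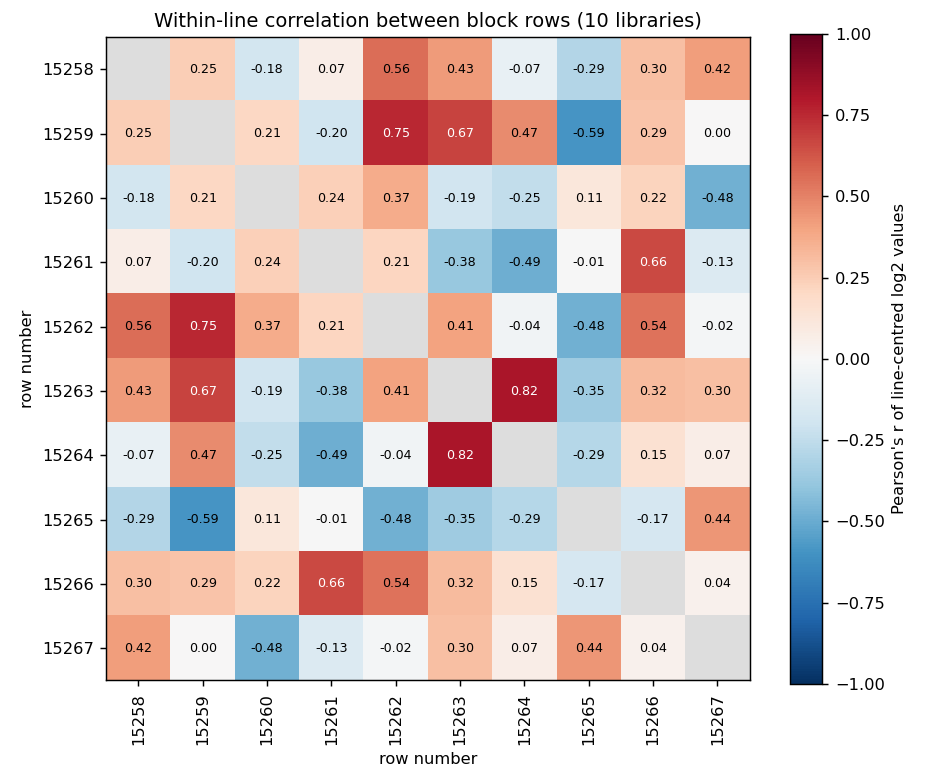
Pearson's r of line-centred log2 values between each pair of the 10 members over 10 libraries, by row number (red positive, blue negative, grey the diagonal). Values range from -0.59 to 0.82 with a median of 0.11, and the highest values are those of rows 15263 with 15264 and 15259 with 15262.

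At the edges of the run, r was -0.12 between row 15257 and ENSRNOG00000055131 (exact permutation p = 0.768) and 0.59 between ENSRNOG00000057214 and row 15268 (exact permutation p = 0.11). The value across the trailing edge was above that of 8 of the 9 neighbouring pairs inside. Searched over the whole table outside the run, the 5 rows most like the members' mean deviation (each member centred on its line and scaled to its SD) had r of 0.87 to 0.91 over 10 libraries. These were rows 9729, 8823, 10495, 7808 and 5023, each at least 4763 rows away. Their log2 differences between lines were -0.09 to 0.09, beside the members' median of -1.11. They are the highest of the whole table, and no p is given for them.

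The social interaction score, which the choice of rows did not use, was tested with the line in the same limma model. The 5 bHR rats scored 16.67 to 28.33 and the 5 bLR rats 7.33 to 24. None of the 10 members passed, a count of 0 where 0% of all rows passed, with limma adjusted p from 0.753 to 0.978. At an unadjusted p under 0.05 there were 0 of 10 members against 7.11% of all rows, and limma with voom weights also gave 0. The slopes lay between -0.04 log2 units per point (ENSRNOG00000046751, SE 0.02) and 0.04 (ENSRNOG00000055131, SE 0.03).

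Leaving out each rat in turn used the same contrast that chose the run, so it describes which rats a call depended on and supports no member. The calls of ENSRNOG00000055892, ENSRNOG00000058666, ENSRNOG00000055131, ENSRNOG00000057214 and ENSRNOG00000042971, were made whichever rat was left out, and those of the other 2 members were not. ENSRNOG00000046751 lost its call without bHR replicate 1, 2 or 4 or bLR replicate 2 or 3, with limma adjusted p of 0.0506 to 0.0692. ENSRNOG00000052109 kept it only without bLR replicate 1 (limma adjusted p = 0.0403), and its adjusted p was 0.051 to 0.114 without any other rat. ENSRNOG00000053751 passed as higher in bHR without bLR replicate 5 (limma adjusted p = 0.0472). Without bLR replicate 5 there were 6 members called lower, of 117 rows so called in the table.

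The library kit keeps strand, but the reads are described as non-stranded and whether strand was used in counting is not given here by the labels or the file. Reads of overlapping, antisense or near-identical genes could therefore be shared between identifiers or lost, and for these rows that was not tested.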

How the data were processed

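Polyadenylated RNA of whole hippocampus from 10 rats was sequenced as single 50-base reads. Per the labels' protocols, the aligner was Subread (genome Rnor_6.0, indels not allowed), featureCounts made gene counts from Ensembl v.85, and a gene was kept if 5 or more samples had 16 counts or more. The authors then deposited log2 values from limma voom (R 3.2.2, per the submitters' processing notes). Whole reads were recovered with 1 constant per library, for 100% of values within 0.01 reads. Over 20 pairs of libraries of 1 line the chi-square per row was at least 6.05, so none were duplicates.

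Groups were taken from the sample titles. The line model used limma 3.58.1 (R 4.3.3) with an intensity trend on the log2 table, over all 16643 rows at an adjusted p of 0.05. The rats are separate animals. Correlations and figures used Python 3.11.15 with numpy 2.4.6, pandas 2.3.3 and matplotlib 3.10.9. Both tests were run on simulated data. The changed rows of the limma simulation were drawn from rows more abundant than most members. The correlation simulation drew normal values and no reads. Rows with as few reads as most members were thus covered only as unchanged rows of the limma simulation. The members, the lists and the tests were chosen with earlier results of these data known. All 10 members are named; of the 20 rows outside, those touching the run, those past the threshold and, chosen after its values were seen, row 15248 (its lines did not overlap); and the 5 rows most like the members. Marker lists needed gene names and were not used. Libraries differ in depth from 29106105 to 48663164 reads, and the precision of low rows is limited by their reads, given in the text.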

Additional observations from a re-analysis of the deposited data

Results flagged for a closer look

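A single outlying value was looked for in 20 groups, the 5 log2 values of each member in each line, and 1 was found. Chance gives about 1 in 20 groups. ENSRNOG00000046751 had a log2 value of 0.064 (28 reads) in bLR replicate 5, against -0.86 to -0.61 (17 to 23 reads) in the other bLR rats. The effective size of this library was 0.933 times its reads, and the part of that in the value was not tested.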

How the results depend on the processing

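The log2 difference of each of the 10 members kept its direction in all alternatives run. Members called lower in bHR numbered 7, of 128 rows so called in the table. When 1 library was left out the count was 5 to 7, of 59 to 125 rows. It was 6 or 7, of 46 to 277 rows, under the other scalings, the added reads, no trend, voom weights and other thresholds. It was 4, of 27 rows, with the social score added to the model. Among rows with a mean log2 value of at least 1, where only 2 members were tested, it was 1, of 104 rows. Calls over the whole table fell with the score as well, and the cause of the fall was not tested. The count of members called higher in bHR was 0, of 102 rows. It was 1, in each case ENSRNOG00000053751, with quantile normalization, 2 reads added, voom weights or an adjusted p under 0.10. Those settings called 103 to 226 rows higher. When 1 library was left out the count was 0 to 1, of 47 to 99 rows. Scaling to total reads gave 82 rows lower and 112 higher in bHR over the table, against 128 and 102, and 6 and 0 members. Same-numbered rats of the 2 lines were not treated as pairs in the main fit. The correlations between them were -0.15 to 0.10, which cannot show whether they shared a batch. With the replicate number as a block, 5 members were called lower, of 65 rows, and 0 higher, of 43 rows. No member followed the score in any setting run, the replicate block included (0). Adjusted calls of neighbouring pairs were 0 in every setting, as were those of the whole table, and say nothing about stability. The median r of the 9 neighbouring pairs was 0.07 with total-read scaling (0.16 over the table), 0.08 to 0.30 when 1 library was left out and 0.16 to 0.26 in the other settings. Members with under 10 reads per library have folds that counting limits most.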
